A study of Mus musculus with 12 samples.

Results

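The genes that write, read and remove DNA methylation were followed in N2A cells, a mouse neuroblastoma line, in which the long non-coding RNA Dali had been stably depleted. They were 10 genes of 19938 with a probe set of their own: the DNA methyltransferases Dnmt1, Dnmt3a and Dnmt3b, the maintenance factors Uhrf1 and Hells, the 5-methylcytosine oxidases Tet1, Tet2 and Tet3, and Mbd2 and Mbd3 of the methyl-CpG-binding domain family. They were taken by gene symbol, and all 10 were measured. A gene was represented by the probe set assigned to its symbol alone, and where there were several (Tet1 with 3, Tet3 with 2), by that with the largest interquartile range over the arrays.

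RNA was measured on 12 Affymetrix Mouse Gene 1.0 ST arrays, 3 for each of 4 groups. Control cells carried a scrambled, non-targeting vector and knockdown (KD) cells an shRNA vector against Dali, and both had been co-transfected with a hygromycin resistance plasmid and grown from drug-resistant clones. Each was taken while proliferating in 10% serum, or after all-trans retinoic acid (RA) at 20 uM had been given for 72 h together with a lower serum content of 2%. The change of serum came with RA, so the effects of RA and of less serum cannot be told apart. The 3 arrays of a group were deposited as biological replicates, but it is not stated whether they were separate clones. The paper describes 3 clonal knockdown lines and a control line, without saying which lines the arrays came from. The p-values therefore measure the spread between these samples, and a property of single clones cannot be told apart from the knockdown. No probe set was named as Dali in the annotation used, and the probe sets without a name were not searched for it, so its depletion was not checked on these arrays.

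The median log2 level of an array was 7.146 to 7.209, and arrays of the same group correlated at 0.9924 or higher. Of the 14 sympathoadrenal and neuronal markers listed 12 were measured, and their mean log2 level lay between 9.75 and 10.19 on all arrays. It was 9.98 to 10.03 in control cells, 10.16 to 10.19 in KD cells, 9.83 to 9.85 in control cells after RA and 9.75 to 9.88 in KD cells after RA. Of the 12, 5 rose in proliferating KD cells (Dbh by 0.62, Th by 0.51, Mycn by 0.49, Isl1 by 0.40 and Hand2 by 0.38 on the log2 scale), beside 3.47% of all genes called. Tubb3 (0.24) was higher and Gata2 (-0.21) and Chgb (-0.30) were lower at the adjusted p alone. After RA Dbh rose in KD cells and Phox2a and Chgb fell, beside 3.87% of all genes called, and Th (0.20) was higher at the adjusted p alone. The part of these differences in those of the methylation genes was not tested. The mean log2 level of 5 glial markers was 6.49 to 6.65, that of 6 fibroblast markers 6.49 to 6.75 and that of 7 immune and endothelial markers 6.09 to 6.33.

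DNA methylation in mammals is copied at each round of replication. UHRF1 binds hemimethylated CpG sites behind the fork and recruits DNMT1, which methylates the new strand, and the remodelling ATPase HELLS (LSH) opens nucleosomal DNA for this machinery. DNMT3A and DNMT3B set new methylation marks, TET enzymes oxidise 5-methylcytosine on the way to its removal, and MBD2 and MBD3 are alternative subunits of the NuRD repressor complex, of which MBD2 binds methylated CpG and mammalian MBD3 does so poorly or not at all. Dali has been described as a partner of DNMT1, which raises the question whether the transcripts of this machinery themselves differ in cells in which it is depleted.

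Tet1 fell in KD cells, and Uhrf1 and Hells rose with RA. In KD cells Tet1 fell by 23.5% when proliferating and fell by 32.5% after RA on its leading probe set. Its log2 level there was low, 5.48 to 6.39 over all arrays, beside 6.09 to 6.33 for the mean of the immune and endothelial markers. Whether Tet1 stood above background was not tested. The call in proliferating cells stood just past the cutoff and was lost in 7 other settings, 3 of which left out a single array, and another probe set of Tet1 did not pass there (-0.19, adjusted p = 0.114). In control cells RA raised Hells by 71.4% and Uhrf1 by 60.7%, and in KD cells by 67.6% and 41.1%. A gene was called changed when the adjusted p was under 0.05 and the difference at least 1.3-fold (0.379 on the log2 scale). Dnmt1 and Hells were also higher in KD cells in both states, and Dnmt1 higher after RA in both kinds of cell, with adjusted p-values under 0.05 but differences under 1.3-fold. In this bulk RNA, fewer cells of a type and less RNA per cell cannot be told apart. The other genes spanned less: over all 12 arrays Mbd2 and Tet2 each spanned 0.15 log2 units, Dnmt3b 0.23, Tet3 0.28, Dnmt3a 0.33 and Mbd3 0.38. Dnmt1 spanned 0.61, Uhrf1 0.82, Tet1 0.92 and Hells 1.21. At the adjusted p alone Mbd3 was lower in KD cells after RA (-16.1%) and Dnmt3a higher in proliferating KD cells (13.9%). Dnmt3b was higher with RA in KD cells (12.5%), also at the adjusted p alone.

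**Figure D1:**
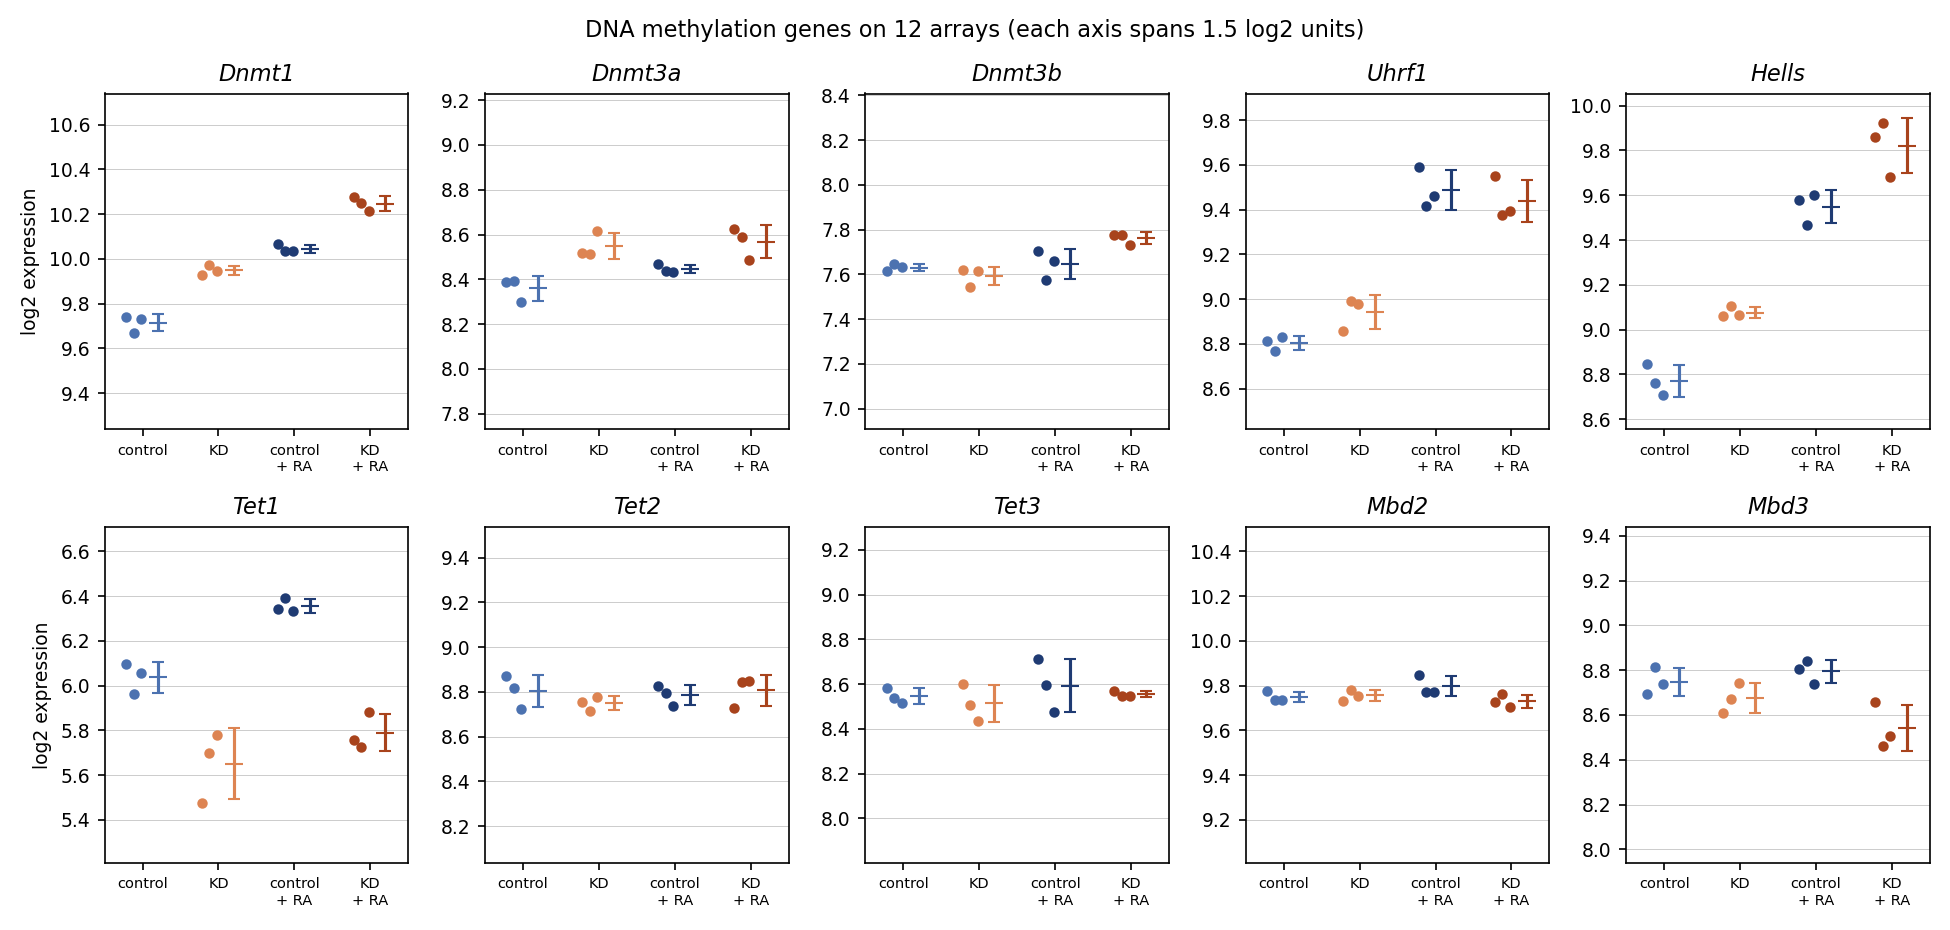
Log2 expression of the 10 DNA methylation genes on each array (points, 3 per group), with the group mean and SD beside them (horizontal and vertical bars); every panel spans 1.5 log2 units, so distances can be compared between panels but levels cannot. Hells and Uhrf1 are high after RA, Tet1 is low in KD cells, Dnmt1 climbs from 9.71 in control cells to 10.25 in KD cells after RA, and Tet2 and Mbd2 stay level.

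Among the calls in proliferating cells, 1 of the 10 genes was called between KD and control cells, beside 3.47% of all genes tested, and without the fold cutoff 4 of the 10 passed the adjusted p, beside 18.6% of all genes. After RA the same comparison called 1, beside 3.87% of all genes, and 4 without the fold cutoff, beside 21.6%. With the KD difference averaged over both states, 1 was called and 5 passed the adjusted p alone, beside 2.88% and 29.8% of all genes. RA called 2 genes in control cells, beside 4.65% of all genes, and 2 in KD cells, beside 4.97%. Without the fold cutoff these counts were 4 in control and 4 in KD cells, beside 17.6% and 20.9%. The median log2 difference of the 10 genes between KD and control cells was -0.01 when proliferating and -0.01 after RA, where the medians of all genes were -0.01 and -0.03. The median of their RA changes was 0.07 in control and 0.10 in KD cells, where the medians of all genes were 0.00 and -0.01.

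**Figure D2:**
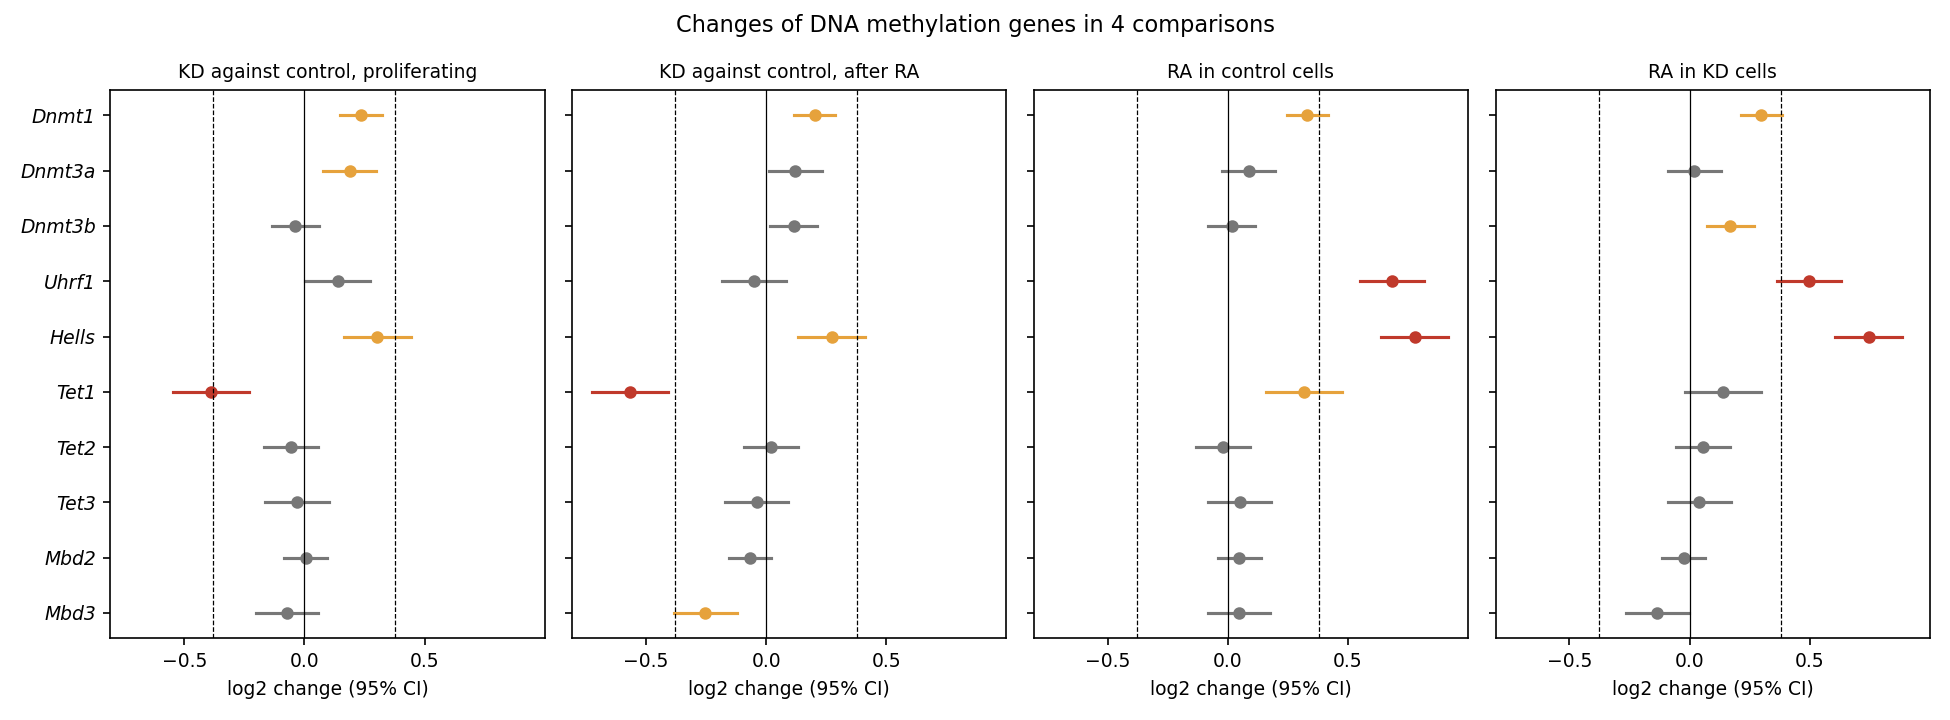
Log2 differences of the 10 genes in the comparisons of KD with control cells and of RA-treated with proliferating cells (points) with 95% confidence intervals (bars). Red marks an adjusted p under 0.05 with at least a 1.3-fold difference (dashed lines), orange an adjusted p under 0.05 with a smaller difference, and grey the rest; Tet1 is the gene in red in both KD comparisons, and Uhrf1 and Hells are those in red in both RA comparisons.

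Dnmt1 encodes the maintenance methyltransferase. Its log2 level was 9.74, 9.67 and 9.73 on the control arrays and 9.93, 9.97 and 9.95 on the KD arrays. After RA it was 10.06, 10.03 and 10.04 in control cells and 10.28, 10.25 and 10.21 in KD cells. The 4 groups did not overlap and followed each other as control, KD, control after RA and KD after RA. The KD difference was 0.24 ± 0.04 (log2, SE) in proliferating cells, or 17.7% (adjusted p = 0.00132, limma), and 0.20 ± 0.04 after RA, or 15% (adjusted p = 0.00322). The RA difference was 0.33 in control cells (95% CI 0.25 to 0.42, adjusted p = 7.21e-05) and 0.30 in KD cells (0.21 to 0.38, adjusted p = 0.00017). None of the 4 differences reached 1.3-fold, so Dnmt1 was not called changed. In the other settings tried (other scalings, filters and fits, and each array left out), the adjusted p of these differences stayed at or below 0.0313.

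The difference of its RA response between KD and control cells was -0.03 with a 95% CI from -0.15 to 0.09 (adjusted p = 0.841), so responses that differ by more than 0.15 lay outside that interval. The 50 tested genes around Dnmt1 in RefSeq gene order, 25 on each side, had a median KD difference of 0.05 over both states. It was -0.02 for all genes, and the difference of Dnmt1 was 0.22. Of these neighbours 70% lay above the median of all genes, 66% in proliferating cells and 74% after RA. The part of this shared shift in the difference of Dnmt1 was not tested.

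The de novo methyltransferases moved less. Dnmt3a was at a log2 level of 8.39, 8.39 and 8.30 in control cells and at 8.52, 8.51 and 8.61 in KD cells. After RA it was at 8.47, 8.44 and 8.43 in control cells and at 8.63, 8.59 and 8.48 in KD cells. KD arrays lay above control arrays in both states, by a gap of 0.12 and of 0.02. The KD difference was 0.19 ± 0.05 in proliferating cells (adjusted p = 0.0203), under 1.3-fold. Without control array 3 the adjusted p was 0.0891, and without KD array 3 it was 0.0919. After RA the difference was 0.12 (95% CI 0.01 to 0.23, adjusted p = 0.113).

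Dnmt3b had log2 levels of 7.61, 7.64 and 7.63 in control cells, 7.62, 7.54 and 7.61 in KD cells, 7.71, 7.57 and 7.66 in control cells after RA and 7.78, 7.78 and 7.73 in KD cells after RA. KD cells after RA lay above all other arrays and the other 3 groups overlapped. Its RA difference in KD cells was 0.17 ± 0.04 (adjusted p = 0.0163), under 1.3-fold. Without replicate 2 of the proliferating KD arrays that adjusted p was 0.0761, and without replicate 2 of the RA-treated KD arrays 0.0531. In control cells the RA difference was 0.02 (95% CI -0.08 to 0.11).

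Hells showed the widest range of the 10 genes. Its log2 level was 8.85, 8.76 and 8.71 in control cells and 9.58, 9.47 and 9.60 in control cells after RA. In KD cells it was 9.06, 9.11 and 9.06, and after RA 9.86, 9.92 and 9.68. As for Dnmt1, the groups did not overlap and stood in the order control, KD, control after RA, KD after RA. Hells rose with RA by 0.78 ± 0.06 in control cells (1.71-fold, adjusted p = 2.9e-06, limma) and by 0.75 ± 0.06 in KD cells (1.68-fold, adjusted p = 4.49e-06). The 2 rises differed by -0.03 (95% CI -0.23 to 0.17, adjusted p = 0.912). In KD cells Hells was higher by 0.30 when proliferating (95% CI 0.17 to 0.44, adjusted p = 0.00541) and by 0.27 after RA (0.13 to 0.41, adjusted p = 0.00935), both under 1.3-fold.

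Uhrf1 encodes the hemimethylated-CpG reader that brings DNMT1 to replicating DNA. It was at a log2 level of 8.81, 8.77 and 8.83 in control cells and of 8.86, 8.99 and 8.98 in KD cells. After RA the arrays read 9.59, 9.42 and 9.46 in control cells and 9.55, 9.38 and 9.39 in KD cells. RA-treated arrays lay above all proliferating ones, and after RA the KD and control arrays overlapped. Uhrf1 rose with RA by 0.68 ± 0.06 in control cells (1.61-fold, adjusted p = 6.09e-06) and by 0.50 ± 0.06 in KD cells (1.41-fold, adjusted p = 9.58e-05). The rise in KD cells was smaller by 0.19 (95% CI of the difference -0.38 to 0.00, adjusted p = 0.34), which did not pass the test. The KD difference in proliferating cells was 0.14 (adjusted p = 0.152) and after RA -0.05 (adjusted p = 0.628), and neither passed.

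The promoters of these maintenance genes were read for E2F words, because E2F factors are known to drive genes of DNA replication. The sequences came from RefSeq (GRCm38.p6, 250 bases before to 50 after an annotated start). Of the 10 genes 9 matched, with 14 promoters, and Mbd2 was not matched. The words were TTCCCGCC, TTTCCCGC, TTTCGCGC and TTTGGCGC on either strand, of which the first and second can overlap. At least 1 of them occurred in 4 promoters of 3 genes, which were Dnmt1, Uhrf1 and Hells, and in none of the promoters of Dnmt3a, Dnmt3b, Tet1, Tet2, Tet3 and Mbd3. Of all 32851 RefSeq promoters 3.49% held such a word, and 7.41% of the 13006 promoters with at least 12 CpG sites. That cutoff was the lowest count among the 4 promoters with a word, of which the others had 33 or 34 sites. The sequences are shown because each of these 3 genes held at least 1 of the 4 words, though no single word was in all 3. Capitals mark the E2F word, or its reverse complement GCGCGAAA for Dnmt1, and each sequence runs 5′ to 3′ on the strand of the gene. Where the window lay within the annotated bounds of a gene, 30 bases around the word are given, and for the first start of Uhrf1 the 250 bases before it.
Dnmt1, start 3 (chr9:20952824-20952853, minus strand): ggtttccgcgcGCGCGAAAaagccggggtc
Uhrf1, start 1 (chr17:56303087-56303336, plus strand): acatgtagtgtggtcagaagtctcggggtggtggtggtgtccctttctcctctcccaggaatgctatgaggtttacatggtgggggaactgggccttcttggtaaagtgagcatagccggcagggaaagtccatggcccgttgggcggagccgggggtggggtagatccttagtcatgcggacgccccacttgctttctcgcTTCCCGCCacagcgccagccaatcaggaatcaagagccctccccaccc
Uhrf1, start 2 (chr17:56304117-56304146, plus strand): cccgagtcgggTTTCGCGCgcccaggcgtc
Hells (chr19:38930917-38930946, plus strand): gaccaccgggtTTTCCCGCgaaagagaagc

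Counted from the annotated start, the word began at base -219 of the third start of Dnmt1, at -48 of the first and -185 of the second start of Uhrf1, and at -62 of Hells. TTTGGCGC occurred in addition at base 33 after the third start of Dnmt1. Singly, TTTCGCGC was found in 0.323% of all promoters, TTTGGCGC in 0.514%, TTTCCCGC in 1.07% and TTCCCGCC in 2.19%. A match of letters is a description and not a binding site, and the arrays do not say which start was used. The GC box word GGGCGG was in 12 of the 14 promoters, against 35.7% of all promoters, a share not matched for CpG sites. Most of these promoters were rich in CpG, with 57 sites in that of Tet2, 34 in that of Hells, 30 in that of Dnmt3b and 17 in that of Tet1, against a median of 7 over all promoters. The first annotated start of Dnmt1, with 2 CpG sites, was the exception below that median.

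**Figure D3:**
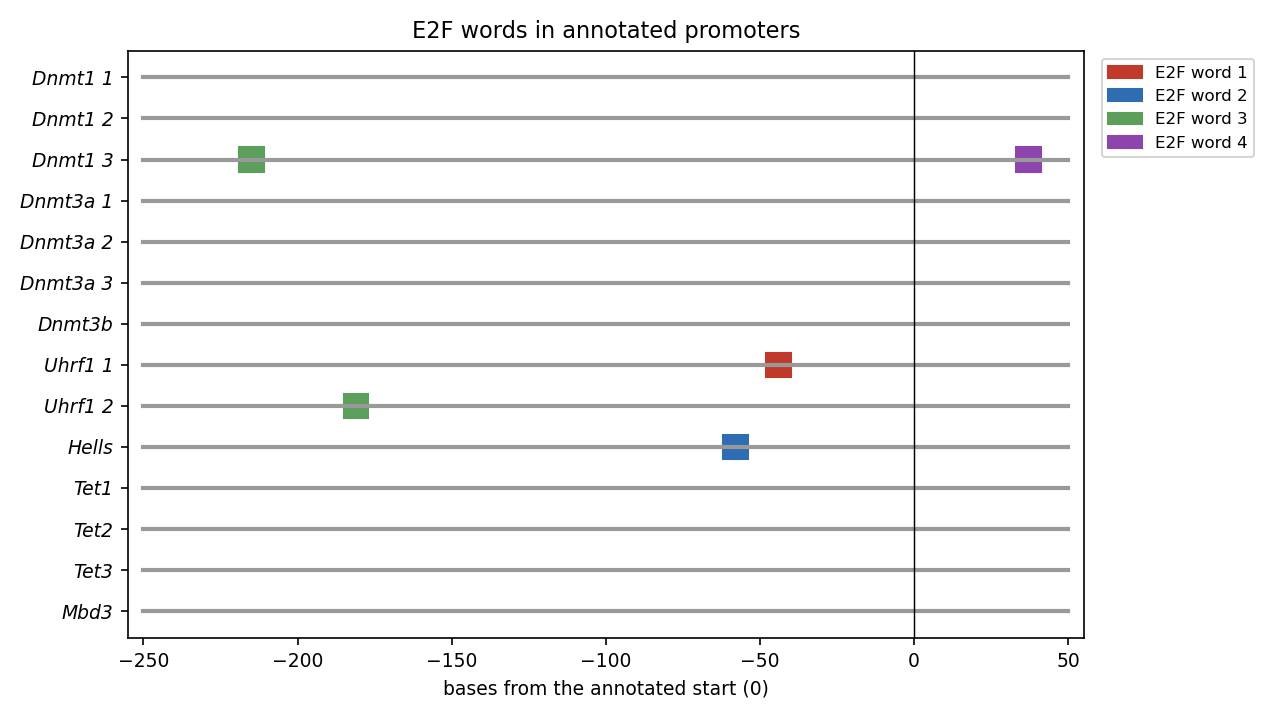
E2F words on the 14 RefSeq promoters of 9 genes, each drawn from 250 bases before to 50 bases after its annotated start (0); a number after a gene's name counts its starts. Word 1 is TTCCCGCC, word 2 TTTCCCGC, word 3 TTTCGCGC and word 4 TTTGGCGC, on either strand; boxes appear on Dnmt1, Uhrf1 and Hells.

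S phase genes were set beside Dnmt1, Uhrf1 and Hells because maintenance methylation is coupled to replication. Of 32 listed, such as the MCM helicase and ribonucleotide reductase genes, 31 were measured and all 31 rose with RA in control cells, by 0.41 to 1.45 with a median of 0.78 (log2). Of all genes 4.65% were called with RA in control cells and 4.97% in KD cells. In KD cells 28 of the 31 rose by at least 1.3-fold and 30 were higher at the adjusted p alone, with a median of 0.66 over the list. The 3 under 1.3-fold were Cdt1 (0.37, adjusted p = 7.76e-05), Gins2 (0.32, adjusted p = 0.000396) and Slbp (0.07, adjusted p = 0.602). Rrm2, the small subunit of ribonucleotide reductase, rose by 1.45 in control and 1.63 in KD cells, Mcm10 by 1.22 and 1.05, Mcm5 by 1.13 and 0.86 and the polymerase gene Pole by 1.13 and 1.18. The rises of Hells, 0.78 and 0.75, thus lay near the medians of this list, those of Uhrf1, 0.68 and 0.50, below them, and the difference of Dnmt1 in control cells, 0.33, below the lowest S phase gene. Whether the change of the S phase genes has a part in that of Dnmt1, Uhrf1 and Hells was not tested. Between KD and control cells none of the S phase genes was called, beside 3.47% of all genes when proliferating and 3.87% after RA. The median difference was 0.07 when proliferating, with 8 higher and 0 lower at an adjusted p under 0.05 (12 at an unadjusted p under 0.05). After RA it was 0.02, with 5 higher and 4 lower (13 unadjusted). The share of all genes at the unadjusted p was not counted. Of all genes 18.6% passed the adjusted p when proliferating and 21.6% after RA.

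**Figure D4:**
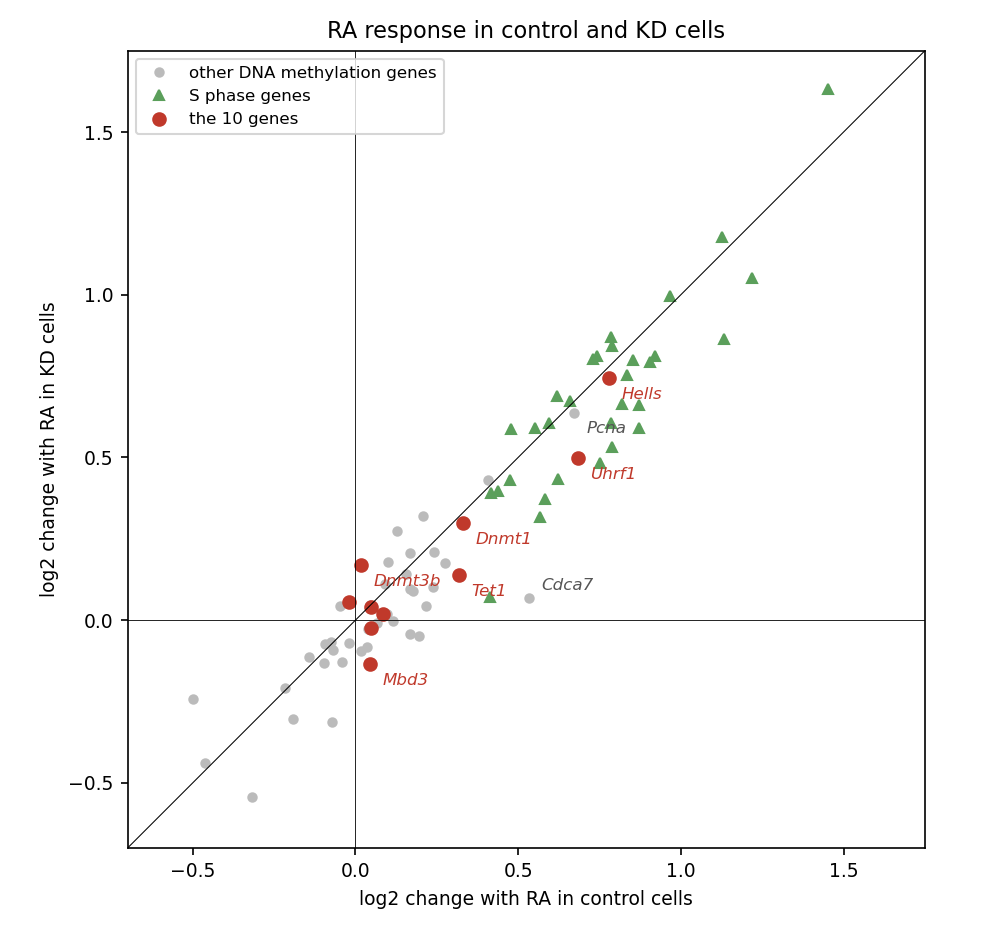
Log2 change with RA in KD cells (vertical) against that in control cells (horizontal) for the 10 genes (red), 38 other genes of DNA methylation (grey) and 31 S phase genes (green triangles); the diagonal marks equal changes, and the axes share no arrays. Hells (0.78 and 0.75) and Uhrf1 (0.68 and 0.50) lie among the S phase genes, and Dnmt1 (0.33 and 0.30) lies to the left of all of these.

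Tet1, the CXXC-domain 5-methylcytosine oxidase, was the gene called between KD and control cells. On its leading probe set, 10369688, the log2 level was 6.10, 5.96 and 6.06 in control cells and 5.48, 5.70 and 5.78 in KD cells. After RA it was 6.34, 6.39 and 6.33 in control cells and 5.76, 5.73 and 5.88 in KD cells. Every KD array lay below every control array, whether proliferating or RA-treated. Tet1 fell by 0.39 ± 0.07 in proliferating KD cells (95% CI -0.55 to -0.23, adjusted p = 0.00271, limma) and by 0.57 ± 0.07 after RA (-0.73 to -0.41, adjusted p = 0.000196), and by 0.48 ± 0.05 as the mean over both states (adjusted p = 2.28e-05). In proliferating cells the difference of 1.31-fold stood just past the 1.3-fold cutoff and came under it in several settings, without KD array 1 for example at -0.30 (adjusted p = 0.00831), and without control array 1 at -0.36 or control array 3 at -0.38. On this probe set and on the mean of all, the other settings left its adjusted p at or below 0.0141. Tet1 was also the only one of the 10 genes below the median of all genes by mean level.

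The other probe sets of Tet1 gave the same direction, at a similar size for the first and a smaller size for the second. On probe set 10369702 the log2 level was 6.51, 6.66 and 6.64 in control cells, 6.15, 6.29 and 6.18 in KD cells, 6.89, 6.74 and 6.84 in control cells after RA and 6.25, 6.64 and 6.44 in KD cells after RA. KD arrays again lay below control arrays of the same state, with differences of -0.40 (adjusted p = 0.00612) and, after RA, -0.38 (adjusted p = 0.00669). Probe set 10369690 read 6.51, 6.53 and 6.76 in control cells, 6.51, 6.32 and 6.42 in KD cells, 6.86, 6.79 and 6.78 in control cells after RA and 6.45, 6.64 and 6.61 in KD cells after RA. There the highest proliferating KD array nearly touched the lowest control array, the difference was -0.19 (adjusted p = 0.114), and after RA it was -0.24 (adjusted p = 0.0373), so this probe set called no change. With the mean of all probe sets the difference was -0.32 in proliferating cells (adjusted p = 0.00134) and -0.36 over both states, both under 1.3-fold, and -0.40 after RA (adjusted p = 0.000309), which was still called.

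**Figure D5:**
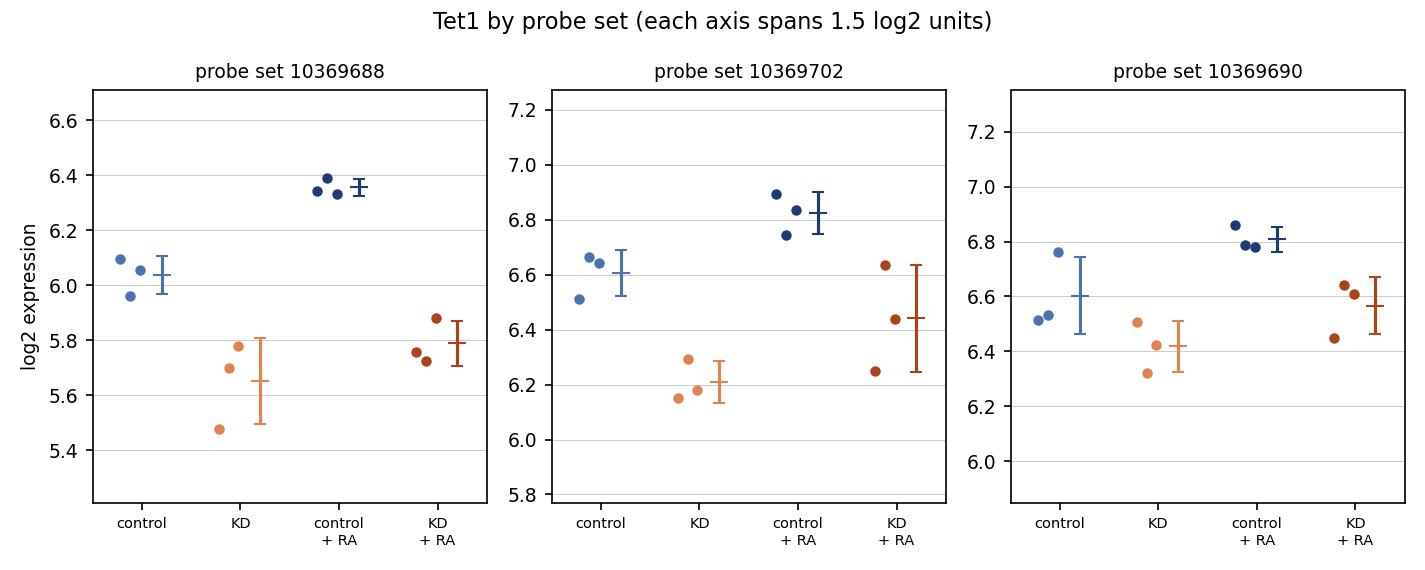
Log2 expression of Tet1 on its 3 probe sets, array by array (points) with group mean and SD (bars); each axis spans 1.5 log2 units. KD arrays lie below control arrays of the same state on each probe set, with the smallest margin between proliferating groups on 10369690.

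With RA, Tet1 was higher by 0.32 in control cells (95% CI 0.16 to 0.48, adjusted p = 0.00846), under 1.3-fold, and by 0.14 in KD cells (-0.02 to 0.30, adjusted p = 0.231). The difference between the 2 responses was -0.18 (95% CI -0.40 to 0.04, adjusted p = 0.451) and was 0.01 on probe set 10369702 (adjusted p = 0.975), so a smaller response in KD cells was not shown. The 50 tested neighbours of Tet1 in gene order had a median KD difference of 0.01 over both states. In that comparison 5 of them were called, beside 2.88% of all genes.

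Tet2 and Tet3, which encode the other 5-methylcytosine oxidases, passed the adjusted p in no comparison. Tet2 spanned log2 levels from 8.72 to 8.87 and Tet3 from 8.44 to 8.71 over all arrays, and all groups overlapped. The KD differences of Tet2 were -0.06 (95% CI -0.17 to 0.06) and, after RA, 0.02 (-0.09 to 0.13), and those of Tet3 -0.03 (-0.16 to 0.10) and -0.04 (-0.17 to 0.09). These intervals leave out a KD difference of 1.3-fold for either gene. The second probe set of Tet3 gave KD differences of 0.08 (adjusted p = 0.461) and -0.03 (adjusted p = 0.8).

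Mbd3 was at a log2 level of 8.69, 8.82 and 8.74 in control cells and of 8.61, 8.67 and 8.74 in KD cells. After RA it was at 8.80, 8.84 and 8.74 in control cells and at 8.66, 8.46 and 8.51 in KD cells. The groups overlapped in proliferating cells, and after RA the KD arrays lay below the control arrays. The KD difference was -0.25 ± 0.06 after RA (95% CI -0.38 to -0.12, adjusted p = 0.00942), or -16.1% and under 1.3-fold, and -0.07 in proliferating cells (adjusted p = 0.464). The test between these 2 differences did not pass (-0.18, adjusted p = 0.345). The 50 tested neighbours of Mbd3 in gene order were lower too: their median KD difference after RA was -0.15, against -0.03 for all genes, and 22% of them lay above the median of all genes. The part of this shared shift in the difference of Mbd3 was not tested.

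Mbd2 had log2 levels between 9.70 and 9.85 on all arrays. Its KD difference was 0.01 (95% CI -0.08 to 0.10) in proliferating cells and -0.07 (-0.16 to 0.02) after RA. Of their 11 NuRD partners none was called in any comparison, beside 0.466% to 4.97% of all genes called, depending on the comparison. In proliferating KD cells 2 were higher and 1 lower at an adjusted p under 0.05 (5 at an unadjusted p under 0.05), and after RA 2 higher and 1 lower (3 unadjusted). No share of all genes was counted for the unadjusted p. Of all genes 18.6% passed the adjusted p when proliferating and 21.6% after RA. After RA the remodeller Chd3 was lower in KD cells by -0.23 (adjusted p = 0.00363) and its paralogue Chd4 higher by 0.16 (adjusted p = 0.0146), and the deacetylase Hdac2 was higher by 0.21 (adjusted p = 0.00635).

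The RA response was compared directly between KD and control cells. None of the 10 genes passed this test under either rule, beside 0.466% of all genes called and 0.667% past the adjusted p alone, and 1 of them, Dnmt3b, had an unadjusted p under 0.05 (0.15 higher, unadjusted p = 0.0317, adjusted p = 0.282). How many of all genes had an unadjusted p under 0.05 was not counted. The widest intervals were those of Tet1 and Hells. A difference of 1.3-fold (0.379 on the log2 scale) lay outside the 95% interval for Dnmt1, Dnmt3a, Dnmt3b, Hells, Tet2, Tet3, Mbd2 and Mbd3, and inside it for Tet1. For Uhrf1 the interval ended at -0.377, so close to that size that a 1.3-fold smaller response in KD cells was hardly left out.

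Beyond these, 38 of 45 listed genes around DNA methylation were measured, from cofactors of maintenance to the supply of methyl donors. In proliferating KD cells 1 rose and 1 fell, against 6 higher and 2 lower at the adjusted p alone, with a list median of 0.01. Of all genes 3.47% were called there and 18.6% passed the adjusted p alone. Mtrr, which reactivates methionine synthase, rose by 0.44 ± 0.05 (adjusted p = 8.08e-05), and Cdca7, whose protein recruits HELLS to chromatin, fell by 0.42 ± 0.08 (adjusted p = 0.0024). After RA Cdca7 was the only call, against 4 higher and 4 lower at the adjusted p alone, and fell by 0.89 ± 0.08 (adjusted p = 1.41e-05). Of all genes 3.87% were called after RA and 21.6% passed the adjusted p alone. Mtrr was higher by 0.31 there (adjusted p = 0.00092), under 1.3-fold. The group mean log2 level of Cdca7 was 7.97 in control and 7.55 in KD cells, and after RA 8.51 in control and 7.62 in KD cells. Cdca7 was thus lower in the KD cells in which its partner Hells was higher.

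With RA, 3 of these 38 genes rose and 2 fell in control cells, against 13 higher and 3 lower at the adjusted p alone. Of all genes 4.65% were called there and 17.6% passed the adjusted p alone. Pcna, whose protein is the sliding clamp of replication and binds DNMT1, rose by 0.67, Cdca7 by 0.53 and the folate enzyme Shmt1 by 0.41. Cxxc4, the TET2 partner also known as Idax, fell by 0.50, and Gadd45b, linked to active demethylation, by 0.46. In KD cells 2 rose and 2 fell, beside 4.97% of all genes called. Pcna rose by 0.64 and Shmt1 by 0.43, and Gadd45b fell by 0.44 and Idh1, which makes 2-oxoglutarate, the co-substrate of TET enzymes, by 0.54. Under 1.3-fold, Idh1 was also lower with RA in control cells (-0.32, adjusted p = 0.00224, limma). Cxxc4 was likewise lower in KD cells (-0.24, adjusted p = 0.00169, limma). Cdca7 had a difference of 0.07 with RA in KD cells (adjusted p = 0.627), and the test between its responses gave -0.47 (adjusted p = 0.0768), which did not pass. None of these genes was called in that test, beside 0.466% of all genes. At an unadjusted p under 0.05 there were 7, a rule at which the share of all genes was not counted. Of the 6 other methyl-CpG readers measured none was called in any comparison, beside 0.466% to 4.97% of all genes called, depending on the comparison. With RA 3 were higher at the adjusted p alone in control cells, Mbd1 by 0.24, Mbd4 by 0.21 and Zbtb38 by 0.17, and 2 in KD cells, Mbd1 by 0.21 and Mbd4 by 0.32. Of all genes 17.6% passed the adjusted p in control cells and 20.9% in KD cells.

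The genes whose pattern over the arrays was most like that of each called gene were found by the root mean square difference between values centred on the gene's own mean. For Uhrf1, whose own values had a root mean square of 0.31, these were the polymerase alpha subunit Pola2 (0.06), the spindle checkpoint kinase Bub1b (0.06) and Nmral1 (0.06). For Hells, with 0.41, they were the Myb family gene Mybl1, the centriole kinase gene Plk4 and the centrosomal gene Cep295 (0.06 each). For Tet1, with 0.28, they were the homeobox gene Dlx1 (0.07), Shisa3 (0.10) and the clock-related repressor Bhlhe41 (0.10). The nearest of the 10 genes to one another were Tet2 and Mbd2 (0.06) and the farthest Hells and Tet1 (0.48). These 12 values share the design of 4 groups, and genes with the same group differences are alike on this measure.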

How the data were processed

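RNA of 12 N2A samples was measured on single-colour arrays. For every probe set and array the authors deposited a log2 expression value, made by RMA background correction, quantile normalisation and gene-level summary (RMA and limma are named without a version). This puts the arrays on a shared scale and hides any change in total RNA per cell. The number of arrays limits the precision. No batch of hybridisation is named in the sources used here.

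The platform annotation gave 1 symbol to 21789 of 35556 probe sets and several to 1621, and 12146 were unnamed here; 21698 of those with 1 symbol were found in RefSeq (GRCm38.p6) by identifier, 91 were not, and 0 symbols changed. These stood for 19938 genes, and in the 999 genes with several probe sets that of the largest interquartile range was taken. No filter on level was applied. A model of 4 group means was fitted to the 12 arrays in R 4.3.3 by limma 3.58.1 (lmFit, contrasts.fit, eBayes), two-sided, with Benjamini-Hochberg adjustment over all genes; errors of log2 differences are standard errors. The fit was tested on simulated data. The variance filter of the study's methods was an alternative, since it selects on the spread of the arrays tested and was passed by 4 of the 10 genes. Other alternatives were the mean of a gene's probe sets, the genes above the median level, median centring, repeated quantile normalisation, array weights, an eBayes trend, a replicate block, only the groups compared, no fold cutoff, and leaving out each array. The other probe sets of Tet1 and Tet3 were added after seeing the data.

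The genes, lists and tests were chosen with earlier results of these data known. The named genes were the 10 genes, up to 6 called genes of the DNA methylation list per comparison, called NuRD partners, the 4 S phase genes with the largest change, and the 3 genes most alike to each called gene (root mean square difference, without predicted and small RNA genes). Chd3, Chd4, Hdac2, Mbd1, Mbd4, Zbtb38, Cdt1, Gins2, Slbp and the neuronal markers were named after their values were seen. Gene order came from RefSeq, 25 tested genes on each side.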

Additional observations from a re-analysis of the deposited data

How the results depend on the processing

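The log2 differences of the 10 genes kept their direction in all other settings chosen at the outset (a change of sign was counted where the main difference exceeded its standard error), and 1236 of 1258 values also kept their side of the threshold. Of the rest, 14 passed only for want of the fold cutoff, and 8 came under it, all for Tet1. In proliferating KD cells Tet1 came to -0.32 with the mean of its probe sets, -0.38 with arrays centred on their medians, -0.36 with repeated quantile normalisation, -0.38 with array weights and -0.30 to -0.45 with single arrays left out, so the count of the 10 genes called was 0 in these 4 settings and 0 to 1 with arrays left out. The mean of probe sets also left 0 called over both states (Tet1 at -0.36). Tet1 was not tested among the genes above the median level, and 0 were called in proliferating KD cells, in KD cells after RA and over both states. On the added probe set 10369702 the difference of the RA responses of Tet1 changed sign to 0.014, against -0.18.

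Without the fold cutoff, 4 of the 10 genes passed in each of the KD and RA comparisons and 5 over both states, among 3703 genes for KD when proliferating, 4305 for KD after RA, 3508 for RA in control cells, 4173 for RA in KD cells and 5950 over both states. The test between the RA responses was the least steady across all genes: 93 were called, 171 with an eBayes trend and 34 (without control array 2) to 135 with single arrays left out. The share of higher among its calls was 33% (31 of 93), and 53.6% after repeated quantile normalisation.

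Replicate numbers are given in the labels, and the correlations gave little sign that they pair the arrays. Of 18 pairs with the same number across groups 4 correlated above 0.1 in their deviations from the group means. Their median was 0.016 and the highest 0.208, against a median of -0.012 for pairs with different numbers. This does not exclude a pairing. With the replicate number as a block, 691 genes were called for KD when proliferating, 772 for KD after RA, 930 and 990 for RA in control and KD cells, 62 between the responses and 575 over both states, and the number of the 10 genes called changed in none of them. The deposited values carry no detection calls, so whether Tet1, the gene below the median level, stood above background was not tested.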
